A study of Danio rerio with 4 samples.

Results

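Genes of the extracellular matrix and of cell adhesion were examined in primordial germ cells, from which eggs and sperm descend, of AB strain zebrafish at 13 hours post fertilization. Embryos had been injected with a morpholino against dead end (dead end MO, 2 libraries) or with a control morpholino (control MO, 2 libraries), and cells were sorted on germline EGFP. Morpholinos are antisense oligonucleotides that block translation or splicing of the RNA they pair with, and the labels do not say which applies here. The product of dead end binds RNA and is needed for germ cells to survive. The study concerns the part of Dead end in germ cell fate, as the title of the series puts it. Both groups share the strain, the stage and the sort, and whether libraries of 1 group stem from different clutches is not stated in the labels. Members were all rows of the authors' gene table whose symbol begins like that of a collagen, laminin, fibronectin, hyaluronan synthase, fibulin, fibrillin, link protein, versican, nidogen, perlecan, matrix protease, lysyl oxidase, thrombospondin, osteonectin, integrin, cadherin, protocadherin, EpCAM, glypican or syndecan gene. This gave 39 of 2477 rows, of which 22 were matrix genes, 13 adhesion receptor genes and 3 cell-surface proteoglycan genes. The remaining one, col4a3bpb, is taken by its spelling only.

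The extracellular matrix is the meshwork of secreted proteins and sugars around cells. Its basement membranes are sheets built from laminin and type IV collagen networks that nidogen and perlecan link together. Cells hold to this matrix through integrins, which are pairs of an alpha and a beta subunit, and hold to each other through cadherins. Cell-surface proteoglycans such as syndecans and glypicans carry sugar chains that bind matrix proteins and growth factors. In the zebrafish embryo, matrix and cadherins shape the somites, notochord, heart and neural tube, and migrating germ cells use E-cadherin for traction against the cells around them.

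For each gene the table holds 1 FPKM value with dead end MO and 1 with control MO (fragments scaled to transcript length and library size), each combining 2 libraries, so the spread between libraries could not be computed and the depth is unknown. Every row had an authors' q under 0.05, so only genes the authors called are described, and other genes of these families were not analysed here. RefSeq names of protein-coding zebrafish genes matched the same pattern 313 times. These included 14 integrin beta names and epcam, which were not analysed here. By family there were 5 protocadherin rows beside 63 RefSeq names, 4 rows of numbered cadherins beside 28 and 4 integrin alpha rows beside 20. There were 3 laminin rows beside 14 names, and 2 fibronectin rows beside 2. Collagens had 7 rows beside 60 names, and matrix proteases had 1 row beside 46. Thrombospondin, osteonectin and lysyl oxidase genes had no row beside 23 names. Rows and names were counted apart, and 36 of the 39 row symbols were among RefSeq names.

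Nearly all called matrix and adhesion transcripts rose in dead end morphant cells. With dead end MO, 35 of the 39 rows (89.7%) were higher and 4 lower at the authors' q under 0.05, while 65% of all 2477 rows were higher and 35% lower. Among matrix genes 21 of 22 were higher, and among adhesion receptor genes 13 of 13. At q under 0.01, 27 members were higher and 2 lower, while 42.6% of all rows were called and higher and 18.1% called and lower. The median rise of the 35 higher members was 3.84-fold, against 2.96-fold over all higher rows with a control value above 0. Members had lower control levels, with a median of 7.67 FPKM against 16.8 FPKM over all rows. All rows include the 35% that were lower, while most members were higher, so these 2 medians are not like for like. Among 1533 higher rows with both values above 0, the fold was larger at lower control levels (Spearman correlation -0.436). The control level is also the divisor of the fold, and only called rows entered, so part of this correlation is built in. The part of level in the larger median rise of the members was not tested. A rise of at least 4-fold was seen in 16 of the 39 members and in 16.6% of all rows. The rises ran from 1.94-fold for nid2a to 11.7-fold for pcdh8. In the same comparison 7 of 8 germ cell markers were called and all 7 were lower. Of 57 markers of somatic tissues 36 were called and all 36 were higher. The marker lists were chosen with earlier results of these data known, so these counts are descriptions only. No called share over the whole genome was computed, so the called counts are not read as many or few. The part of other cell types in the rise of matrix and adhesion transcripts was not tested. In such bulk samples, fewer cells of a type and less RNA per cell cannot be told apart.

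**Figure D1:**
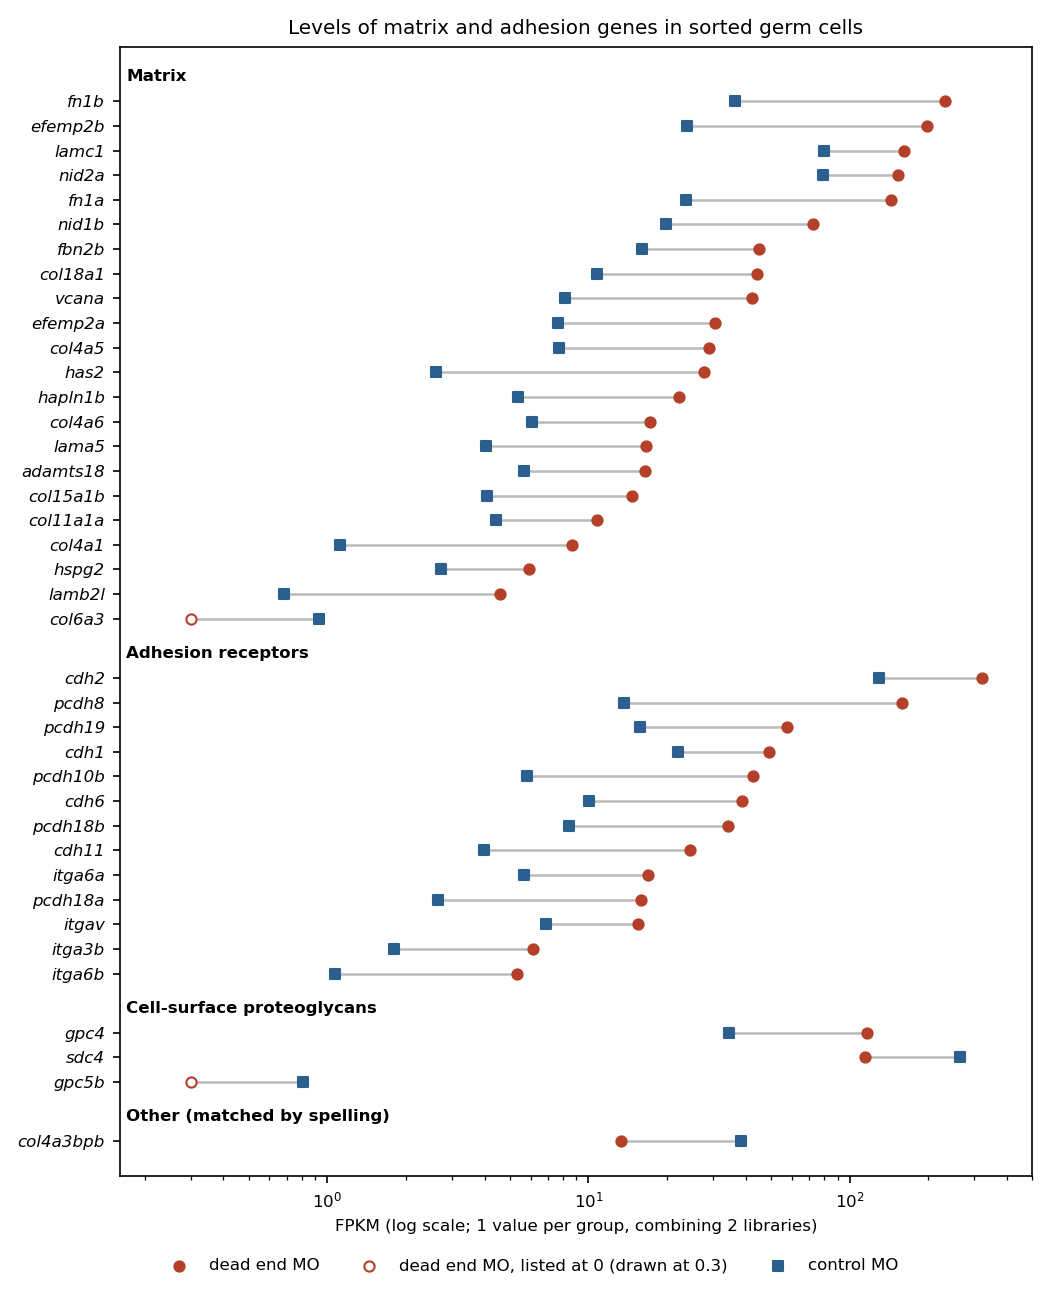
FPKM of each of the 39 members on a log axis, with a circle for dead end MO and a square for control MO, joined by a line, grouped by class and sorted by the dead end MO value. Circles lie right of squares for 35 genes, and open circles mark the 2 genes listed at 0 with dead end MO.

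Matrix and adhesion receptor genes moved by nearly the same amount. On the scale of log2(FPKM + 1), which understates the change of low genes, the median difference of dead end MO minus control MO was 1.79 for the 22 matrix genes and 1.81 for the 13 adhesion receptor genes. Over all rows it was 1.17. The difference between the 2 medians was -0.02, and it took either sign under other settings, from -0.05 to 0.12. Median levels were also close, at 28.3 FPKM for matrix and 34.1 FPKM for adhesion receptor genes with dead end MO, and at 6.86 and 6.90 FPKM in controls. Genes are not replicates of a condition, so these medians describe the lists and carry no test.

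Within the matrix class, the 11 genes of basement membranes were all higher, with a median rise of 3.67-fold. This grouping was made after their values were seen. Of the 11 other matrix genes 10 were higher, by 4.66-fold in the median, while 65% of all rows were higher. The median change of log2(FPKM + 1) was 1.73 for the 11 basement membrane genes and 1.86 for the 11 others. Summed over genes, basement membrane transcripts stood at 529 FPKM with dead end MO and 216 FPKM with control MO. The other matrix transcripts summed to 769 FPKM with dead end MO and 135 FPKM with control MO. The ratio of sums was 2.45 for basement membrane genes and 5.70 for the other matrix genes, beside 2.02 for all rows. The ratio was 3.74 for the 9 basement membrane genes other than lamc1 and nid2a, which are abundant genes with small rises. It was 3.83 for the 8 other matrix genes without fn1b, efemp2b and fn1a, which are abundant genes with large rises. The genes left out were picked with their values known, so the smaller gap follows from that choice.

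**Figure D2:**
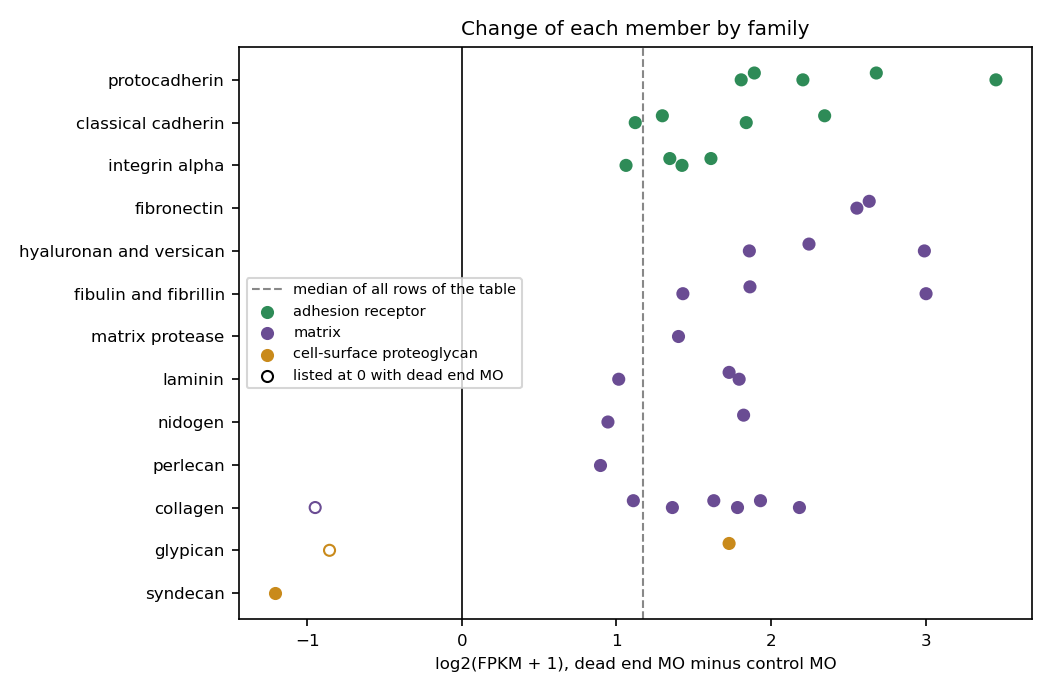
Difference of log2(FPKM + 1), dead end MO minus control MO, for 38 members by gene family (col4a3bpb left out), coloured by class, with the median of all rows as a dashed line at 1.17. Protocadherins and fibronectins lie right of the line, laminins, nidogens and integrin alpha genes spread across it, and sdc4 and the 2 genes listed at 0 lie left of 0.

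Fibronectin, the secreted protein on which somite boundaries and the migrating heart precursors rest in zebrafish, had the most abundant matrix transcript after the knockdown. The gene fn1b (ENSDARG00000006526, chromosome 1, 4739584 to 4845260, positions taken as GRCz10) had 232 FPKM with dead end MO and 36.6 FPKM with control MO, a rise of 6.36-fold (q = 0.00107 in the authors' deposited table). Its paralog fn1a had 144 FPKM with dead end MO and 23.7 FPKM with control MO, 6.08-fold higher. The share of fn1b in the summed level of the pair was 61.7% with dead end MO and 60.6% with control MO, so both copies rose in near proportion. Paralogs can share reads, and how the authors divided such reads is not stated.

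Hyaluronan is a hydrated sugar gel that opens space between migrating cells. Beside 10 RefSeq names of hyaluronan synthase, link protein and versican genes, 3 rows were called. All 3 were higher, while 65% of all rows were higher. The synthase gene has2 (ENSDARG00000036987, chromosome 16, 15479513 to 15497339) had 27.6 FPKM with dead end MO and 2.60 FPKM with control MO, the second largest rise among the members at 10.6-fold (q = 0.00107 in the authors' deposited table). The versican gene vcana, whose product binds hyaluronan, had 42.2 FPKM with dead end MO and 8.11 FPKM with control MO. The link protein gene hapln1b, whose product joins the 2, had 22.2 FPKM with dead end MO and 5.38 FPKM with control MO. The rises of vcana and hapln1b were 5.20-fold and 4.12-fold. The statistic of hapln1b in the authors' deposited table was 0.83 at p = 0.0001, and the next lowest among higher members was 1.52, for nid2a at p = 0.00415.

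Genes of elastic fibres and microfibrils were higher, with unequal paralogs. The fibulin gene efemp2b (ENSDARG00000020811, chromosome 21, 25551830 to 25568004), which acts in elastic fibre assembly in mammals, had 198 FPKM with dead end MO and 23.8 FPKM with control MO (8.31-fold, q = 0.00107 in the authors' deposited table). Its paralog efemp2a was at 30.5 FPKM with dead end MO and 7.67 FPKM with control MO, 3.98-fold higher. The share of efemp2b in the pair was 86.6% with dead end MO and 75.6% with control MO. The fibrillin gene fbn2b, needed for the embryonic fin fold of zebrafish, had 45.1 FPKM with dead end MO and 16.1 FPKM with control MO. The secreted metalloprotease gene adamts18 was at 16.5 FPKM with dead end MO and 5.65 FPKM with control MO.

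All 6 called genes of laminins, nidogens and perlecan were higher, by 1.94-fold to 6.70-fold, while 65% of all rows were higher. The laminin gamma chain gene lamc1, needed for the notochord sheath in zebrafish, had 162 FPKM with dead end MO and 79.7 FPKM with control MO, a rise of 2.03-fold (q = 0.0205 in the authors' deposited table). The nidogen gene nid2a had 154 FPKM with dead end MO and 79.4 FPKM with control MO, a rise of 1.94-fold (q = 0.0326 in the authors' deposited table). These were the most abundant matrix transcripts of control cells. The other nidogen gene, nid1b, had 72.6 FPKM with dead end MO and 19.8 FPKM with control MO, 3.67-fold higher. The alpha chain gene lama5 had 16.6 FPKM with dead end MO and 4.07 FPKM with control MO. The beta chain gene lamb2l was the lowest higher matrix member in both groups, at 4.58 FPKM with dead end MO and 0.683 FPKM with control MO. The perlecan gene hspg2, a large heparan sulfate proteoglycan of basement membranes, stood at 5.91 FPKM with dead end MO and 2.72 FPKM with control MO, 2.17-fold higher. Its change of log2(FPKM + 1), 0.89, was the smallest of the higher members, followed by nid2a at 0.95 and lamc1 at 1.02.

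Of 7 called collagen genes, beside 60 RefSeq names, 6 rose and the other was lower, while 65% of all rows were higher. The type IV collagen genes encode the network of basement membranes: col4a1 had 8.63 FPKM with dead end MO and 1.12 FPKM with control MO, the largest collagen rise at 7.71-fold. Levels of col4a5 were 28.9 FPKM with dead end MO and 7.68 FPKM with control MO, and those of col4a6 were 17.2 FPKM with dead end MO and 6.06 FPKM with control MO. The loci of col4a5 and col4a6 lie next to each other on chromosome 7, with 730 bases between them, and col4a5 rose 3.76-fold and col4a6 2.83-fold. The basement membrane collagens col18a1, the source of endostatin in mammals, and col15a1b had 44.1 and 14.7 FPKM with dead end MO, against 10.8 and 4.07 FPKM with control MO. The fibrillar collagen gene col11a1a was at 10.7 FPKM with dead end MO and 4.44 FPKM with control MO. The exception was col6a3, whose product forms beaded filaments around muscle fibres: the table listed it at 0 with dead end MO and at 0.929 FPKM with control MO. No fold is given for it, since a listed 0 can be a failed estimate.

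Protocadherins had the largest median rise of the 3 receptor families. The paraxial protocadherin gene pcdh8 (ENSDARG00000006467, chromosome 9, 54117502 to 54126174), which acts in the presomitic mesoderm, had 160 FPKM with dead end MO and 13.6 FPKM with control MO (11.7-fold, with q = 0.00107 in the authors' deposited table). By change of log2(FPKM + 1) it ranked 21st among the 1609 higher rows, ahead of efemp2b and has2 at ranks 59 and 62. The gene pcdh10b (ENSDARG00000102824, chromosome 14, 42611440 to 42633582), also expressed in paraxial mesoderm, had 42.7 FPKM with dead end MO and 5.82 FPKM with control MO (7.34-fold, q = 0.00107 in the authors' deposited table). The paralogs pcdh18a and pcdh18b rose 5.97-fold and 4.03-fold, to 15.9 and 34.1 FPKM with dead end MO, against 2.66 and 8.46 FPKM with control MO. The gene pcdh19, which acts in the neural plate, had 57.8 FPKM with dead end MO and 15.8 FPKM with control MO. The 5 genes had a median rise of 5.97-fold, and each was at the smallest p the authors report (5e-05 in the authors' deposited table). That smallest p was also held by 31.2% of all rows and by 56.4% of the 39 members.

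Classical cadherins, the calcium-dependent receptors of adherens junctions, rose less. The N-cadherin gene cdh2 (ENSDARG00000018693, chromosome 20, 17840339 to 17919655), typical of neural and mesodermal tissue, was the most abundant member with dead end MO at 321 FPKM, against 130.0 FPKM with control MO (2.47-fold, q = 0.00191 in the authors' deposited table). The E-cadherin gene cdh1, typical of epithelia and of the early embryo, had 49.3 FPKM with dead end MO and 22.1 FPKM with control MO (2.23-fold, q = 0.00637 in the authors' deposited table). The ratio of cdh2 to cdh1 was 6.51 with dead end MO and 5.88 with control MO, so both rose in near proportion. The mesenchymal cadherin gene cdh11 rose 6.11-fold, to 24.4 FPKM with dead end MO against 3.99 FPKM with control MO. The gene cdh6, expressed in kidney and neural crest, was at 38.6 FPKM with dead end MO and 10.1 FPKM with control MO.

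All 4 called integrin alpha genes rose, with a median of 3.19-fold, while 65% of all rows were higher. The genes itga6a and itga6b encode a laminin receptor subunit. The itga6a copy had 16.9 FPKM with dead end MO and 5.67 FPKM with control MO, and itga6b had 5.33 FPKM with dead end MO and 1.07 FPKM with control MO. Another laminin receptor subunit gene, itga3b, had 6.11 FPKM with dead end MO and 1.80 FPKM with control MO. The gene itgav, whose subunit binds fibronectin and vitronectin, had 15.5 FPKM with dead end MO and 6.90 FPKM with control MO. None of the 4 reached the smallest p, and 1, itga6a, had q under 0.01 (q = 0.00901 in the authors' deposited table). Over all rows 31.2% were at the smallest p and 60.7% had q under 0.01.

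**Figure D3:**
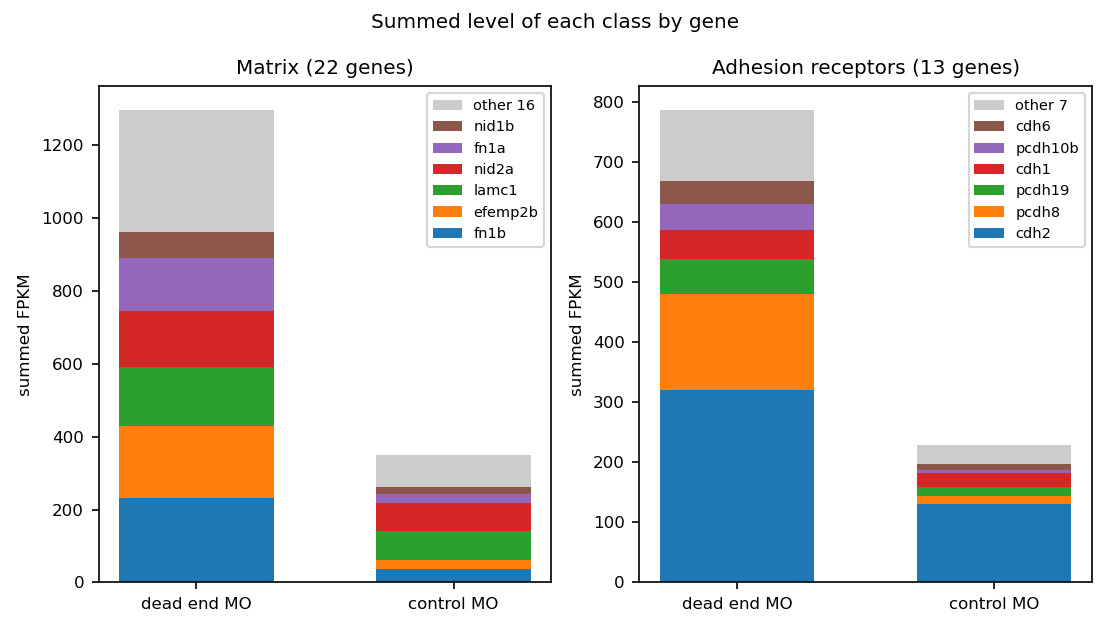
Summed FPKM of the 22 matrix genes and of the 13 adhesion receptor genes with dead end MO (left bar) and control MO (right bar), split by gene. The matrix sum is 1298 with dead end MO and 351 with control MO, and the receptor sum is 787 with dead end MO and 228 with control MO.

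A few genes carried most of the added transcript in both classes. The matrix genes summed to 1298 FPKM with dead end MO and 351 FPKM with control MO, a ratio of 3.70. The receptor genes summed to 787 FPKM with dead end MO and 228 FPKM with control MO, a ratio of 3.45. The 3 proteoglycan genes were kept apart from both classes. They summed to 232 FPKM with dead end MO and 301 FPKM with control MO, a ratio of 0.77. Class ratios thus depend on where the proteoglycan genes are placed. The ratio of sums was 2.54 over all 39 members and 2.02 over all rows. The 3 genes fn1b, efemp2b and fn1a made up 51.8% of the increase in the matrix sum, and without them the ratio was 2.71. The 2 genes cdh2 and pcdh8 made up 60.2% of the increase in the receptor sum, and without them the ratio was 3.64.

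Cell-surface proteoglycans did not move together. The syndecan gene sdc4 (ENSDARG00000059906, chromosome 6, 52664767 to 52677301), whose product works with integrins at fibronectin contacts, was the most abundant member in controls. It fell to 115 FPKM with dead end MO, against 266 FPKM with control MO (2.32-fold lower, with q = 0.00259 in the authors' deposited table). By level it ranked 387th of the 2477 rows with dead end MO and 82nd with control MO. The glypican gene gpc4 (ENSDARG00000015472, chromosome 14, 30749836 to 30810834), which acts in convergence and extension of the zebrafish gastrula, had 117 FPKM with dead end MO and 34.6 FPKM with control MO (3.38-fold higher, q = 0.00107 in the authors' deposited table). The sdc4 and gpc4 transcripts were thus near the same level after the knockdown. The other glypican gene, gpc5b, was listed at 0 with dead end MO and at 0.809 FPKM with control MO.

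The other lower member was not an adhesion gene. Its symbol, col4a3bpb (ENSDARG00000102372, chromosome 21, 2514333 to 2595303), names a collagen-binding protein, but the product is the ceramide transfer protein of lipid transport. It had 13.3 FPKM with dead end MO and 38.4 FPKM with control MO, 2.88-fold lower (q = 0.0129 in the authors' deposited table). With col6a3 and gpc5b each under 1 FPKM, sdc4 was the only adhesion or matrix member above 1 FPKM that fell. The fibulin row FBLN7, written in capitals and so outside the pattern, was listed at 0 with dead end MO and at 1.65 FPKM with control MO.

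Among listed genes that make or modify the matrix, all those called were higher. The share of called genes over the whole genome was not computed, so the called counts are not read as many or few. Of 24 listed genes of collagen folding and processing 4 were called, all of them higher, led by the collagen chaperone gene serpinh1b (559 FPKM with dead end MO, 85.8 FPKM with control MO), plod2, a lysyl hydroxylase gene (59.8 FPKM with dead end MO, 20.0 FPKM with control MO) and the protease gene tll1. Of 35 listed genes of glycosaminoglycan synthesis and turnover 7 were called, all of them higher. Among these sulf1, which trims sulfate from heparan chains, had 81.2 FPKM with dead end MO and 10.7 FPKM with control MO (7.63-fold), and the heparan polymerase gene ext1b rose 4.49-fold. Of 33 other listed matrix proteins, 26 had names found in the reference names or the authors' rows. Of these 3 were called, namely tgfbi, fras1 and agrn, higher by 2.59-fold to 3.01-fold. Of all rows, 65% were higher, so the shared direction of a few called genes says little.

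Listed adhesion partners inside the cell and other receptors were called in part, and the members themselves were 39 rows beside 313 RefSeq names. Here too no called share over the whole genome was computed. The directions below stand beside 65% higher and 35% lower over all rows. Of 30 linker genes 3 were called, all higher, with the catenin gene ctnnb1, whose product binds cadherin tails and carries Wnt signals, at 803 FPKM with dead end MO and 200.2 FPKM with control MO. The others were lims1, an integrin adaptor gene (3.34-fold), and bcar1 (2.39-fold). Of 28 other adhesion receptors 8 were called, all higher, led by the nectin gene pvrl1b (4.81-fold), ncam1a (5.51-fold) and the dystroglycan gene dag1 (3.37-fold). Of 38 tight junction and desmosome genes 8 were called, 6 higher and 2 lower. The claudin gene cldni had 37.8 FPKM with dead end MO and 5.11 FPKM with control MO. The scaffold gene tjp3 fell to 14.8 FPKM with dead end MO, against 59.5 FPKM with control MO, and marveld3 was listed at 0 with dead end MO and at 16.2 FPKM with control MO. The authors' deposited table of enriched terms gave regulation of cell adhesion among the higher genes (15 of 70 genes, 4.84-fold, corrected p = 0.00297), and regulation of cell-cell adhesion (12 of 43 genes, 6.30-fold, corrected p = 0.0025). Its terms were searched for the words adhesion, extracellular and basement, and only these 2 terms were found. The background of the enrichment was a zebrafish reference list, not the genes detected in these cells. By its header, the uploaded list held fewer genes than there were higher rows.

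**Figure D4:**
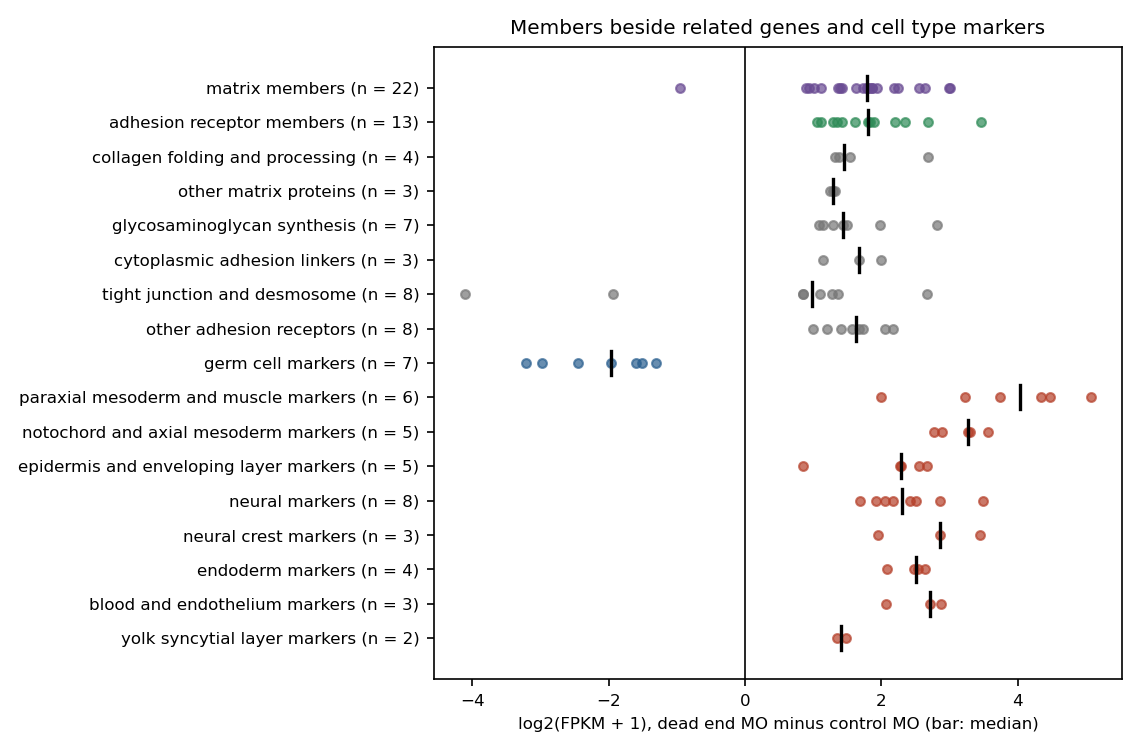
Difference of log2(FPKM + 1), dead end MO minus control MO, of called genes in the matrix and adhesion receptor classes, in lists of related genes and in cell type marker lists, with a bar at each median. The 7 germ cell markers lie left of 0, called markers of somatic tissues lie right of it, and the medians of the matrix and receptor classes are 1.79 and 1.81.

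All 36 called markers of somatic tissues were higher, while 65% of all rows were higher and 35% lower. Since the lists were chosen with earlier results of these data known, their shared direction is a description and no test. Called counts by list are not read as many or few, as no called share over the whole genome was computed. Median rises by list ran from 2.68-fold (yolk syncytial layer) to 17.5-fold (paraxial mesoderm and muscle), against 3.84-fold for the higher members. Of 8 germ cell markers 7 were called and all were lower, summing to 2167 FPKM with dead end MO and 10074 FPKM with control MO. Germ cell transcripts such as nanos3 (906 FPKM with dead end MO, 3543 FPKM with control MO) were present in both groups. Paraxial mesoderm and muscle markers were higher for 6 of 6 called of 9 listed, summing to 1878 FPKM with dead end MO and 124 FPKM with control MO, with a median rise of 17.5-fold. Notochord markers were higher for 5 of 5 called of 6 (334 FPKM with dead end MO, 39.0 FPKM with control MO), neural markers for 8 of 8 called of 9 (817 FPKM with dead end MO, 128 FPKM with control MO) and epidermal markers for 5 of 5 called of 10 (593 FPKM with dead end MO, 238 FPKM with control MO). The list named neural crest gave 3 of 3 called of 7 (290.3 FPKM with dead end MO, 39.5 FPKM with control MO). These were snai1a, snai1b and twist1a, with snai1a alone at 181 FPKM with dead end MO. The listed crest markers foxd3, sox10, tfap2c and crestin were not called, so the sum of this list is not read as a rise of neural crest. Endoderm gave 4 of 4 called of 5 (141 FPKM with dead end MO, 21.3 FPKM with control MO). Blood and endothelium gave 3 of 3 called of 6 (52.2 FPKM with dead end MO, 6.71 FPKM with control MO), and the yolk syncytial layer 2 of 2 called of 5 (1274 FPKM with dead end MO, 491 FPKM with control MO). Of the called markers 1 was listed at 0, the endoderm gene sox32 in controls. The epidermal list had no row for krt4, krt5, krt17, krt18 and cldne. Blood and endothelium lacked gata1a, lmo2 and kdrl, and the yolk syncytial layer lacked apoa1b, apoa2 and mxtx2. Most of the epidermal sum was krt8 (358 FPKM with dead end MO, 198 FPKM with control MO). Most of the yolk sum was apoeb (1037 FPKM with dead end MO, 407 FPKM with control MO). The sums of these lists are likewise not read as a rise of a tissue.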

How the data were processed

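Polyadenylated RNA of sorted germ cells was sequenced after a directional library kit, per the labels' protocols, in 2 dead end MO and 2 control MO libraries, grouped by title. Per the submitters' processing notes, the tools included STAR 2.5.2b, Cufflinks 2.2.1, Cuffdiff and cutadapt 1.10, and 2 builds are listed, GRCz10 and Zv9, with no roles. Positions were taken as GRCz10, since the rows of chromosome 4 reach position 74754136, beyond its length in Zv9. The authors deposited 1 FPKM per gene and group, their log2 ratio of dead end over control, a test statistic (a score), and a p-value and q-value per gene. The deposited enrichment table of PANTHER gave counts of genes per term, the fold enrichment as a ratio, and a corrected p-value.

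Folds are ratios of the deposited FPKM, and differences are log2(FPKM + 1). The deposited log2 ratio matched the FPKM within 1.34e-05. With 1 value per group no test of the groups could be run, so calls are the authors' q under 0.05, whose model of spread is not given here. It rests on only 2 libraries per group, and the spread between these may be technical. Values listed at 0 (232 rows) can be failed estimates. Whether counting used strand is not stated.

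Members and lists were chosen with earlier results of these data known. All members were to be named, with position and q for the 2 largest changes and the most abundant gene of each class. Further q values, the basement membrane grouping, the genes left out of sums, FBLN7 and the 4-fold limit were added after values were seen. Counting and medians (Python 3.11.15, pandas 2.3.3) were tested on simulated data, with 25 of 25 tables recovered. Matches used table symbols, and all 39 member identifiers were in the reference names. RefSeq names came from GRCz12tu. Some listed names were found neither in reference names nor in the authors' rows. Those found were 23 of 24 for collagen folding, 26 of 33 for other matrix proteins and 29 of 30 for linkers. Found names were 26 of 28 for other receptors, 36 of 38 for tight junctions and desmosomes, and 9 of 10 for epidermis. Alternatives were other limits on q and FPKM, other pseudocounts, other placement of proteoglycans, and paralogs summed.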

Additional observations from a re-analysis of the deposited data

How the results depend on the processing

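The counts of higher members, matrix genes and adhesion receptor genes stayed within 1.5 times under every alternative tried, and lowest at q under 0.01 (27, 16 and 10). The median log2 change lay between 1.73 (proteoglycans counted with matrix) and 1.99 for matrix genes and between 1.67 (proteoglycans counted as receptors) and 1.94 for adhesion receptor genes; both low ends come from settings added after seeing the data. The difference of the 2 medians, matrix minus adhesion receptor, was -0.0185 as reported, and changed sign to 0.0012 with a minimum of 5 FPKM, 0.0097 with a pseudocount of 0.1, 0.055 with no pseudocount and zeros left out, and 0.118 with proteoglycans counted as receptors. The cause was not tested. With paralog pairs summed, an alternative chosen after seeing the data, 31 members were higher. Proteoglycans counted with matrix gave 22 higher genes, and counted with adhesion receptors they gave 14. Either placement adds gpc4, which was higher, and also sdc4 and gpc5b, which were lower. Not all receptor genes were then higher. No paired analysis was possible because the table gives 1 value per group. Leaving out a replicate could not be done for the same reason. Depth is unknown, and genes under 1 FPKM in both groups (col6a3 and gpc5b) rest on listed zeros.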
